A study of Caenorhabditis elegans with 10 samples.

Results

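The genes described here are the members of the Caenorhabditis elegans collagen family that carry a numbered col symbol. Every gene whose WormBase symbol is col followed by a number was taken except col-7, col-19, col-38, col-49, col-62 and col-63, which left 153 of the 46770 genes in the count tables. Of these, 150 are annotated as protein-coding, and col-66, col-136 and col-182 are annotated as pseudogenes. The study sequenced polyadenylated RNA from whole worms of 2 strains, F01D4.5(baf20) and the laboratory wild type N2, with 5 biological replicates of each. Worms released from L1 arrest, the starvation-induced halt of first-stage larvae, had been grown for 48 h at 20 °C on OP50 bacteria, and 1000 to 2000 worms were pooled for each sample. Both strains were handled alike as far as the labels say, and the labels describe the baf20 allele no further than its name.

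Cuticle collagens are small secreted proteins made by the epidermis, the tissue that lies under the worm's exoskeleton. After their chains are hydroxylated, trimerised and trimmed by proteases, they are cross-linked into a cuticle that is built anew at each moult. Different collagen genes are transcribed at different stages and at different points of the moulting cycle, and their transcripts are therefore widely used as markers of larval timing.

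The libraries held 9059910 to 11056979 gene counts, and the 153 collagens took 4.43% to 6.34% of them. Levels are given as CPM, the counts per 1000000 of a library size scaled by the trimmed mean of M values, on which 3 counts correspond to 0.27 to 0.339 CPM. The gene F01D4.5 itself was lower in the strain named for it, at 2.15 to 4.03 CPM in F01D4.5(baf20) libraries against 6.44 to 14.3 CPM in N2 libraries, with no overlap. Both libraries numbered 5 stood apart from the other 8 on the first principal component, which held 56.2% of the variance. The replicate numbers come from the sample titles, and nothing says that a number marks a shared day or culture. In whole-worm RNA, fewer cells of a type and less RNA per cell cannot be told apart.

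Transcripts of 98 of the 153 collagens were abundant enough to be tested. The other 55 had at most 163 counts over all 10 libraries, reached by col-41, and a median of 18. Among them, 19 had fewer than 10 counts in total, and col-99, col-167 and col-171 were listed at 0. The tables list some genes as 1 row per transcript, and reads shared by several transcripts may have gone to none of these rows. This touched 26 of the 153 collagens, of which 15 were among those not tested. It included col-99, which encodes a transmembrane collagen and has 5 rows, col-12, with 15 counts over 2 rows, and col-14, with 7 counts over 2 rows. Low totals for these genes therefore say little about their expression.

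Tested collagens spanned a wide range of level. Per transcript length, on the TPM scale, col-139 was the highest with a mean of 6024, followed by col-20 with 5474, col-122 with 4764, col-81 with 4677 and col-119 with 4452. The col-139 gene lies on chromosome V at 4652863 to 4653971 in WBcel235, and its transcript had 5352, 4773, 5514, 5418 and 4921 CPM in F01D4.5(baf20) libraries 1 to 5, against 5341, 7306, 5915, 6466 and 5220 CPM in N2 libraries 1 to 5. The strains overlapped, and neither library numbered 5 was an extreme of its strain by more than a small margin. The 10 collagens with the most counts supplied 71.5% to 72.8% of the family's CPM in F01D4.5(baf20) libraries 1 to 4 and 53.7% in F01D4.5(baf20) library 5. The same collagens supplied 68.9% to 73.7% in N2 libraries 1 to 4 and 52.4% in N2 library 5. The family's composition thus differed between the libraries numbered 5 and the rest in both strains.

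**Figure D1:**
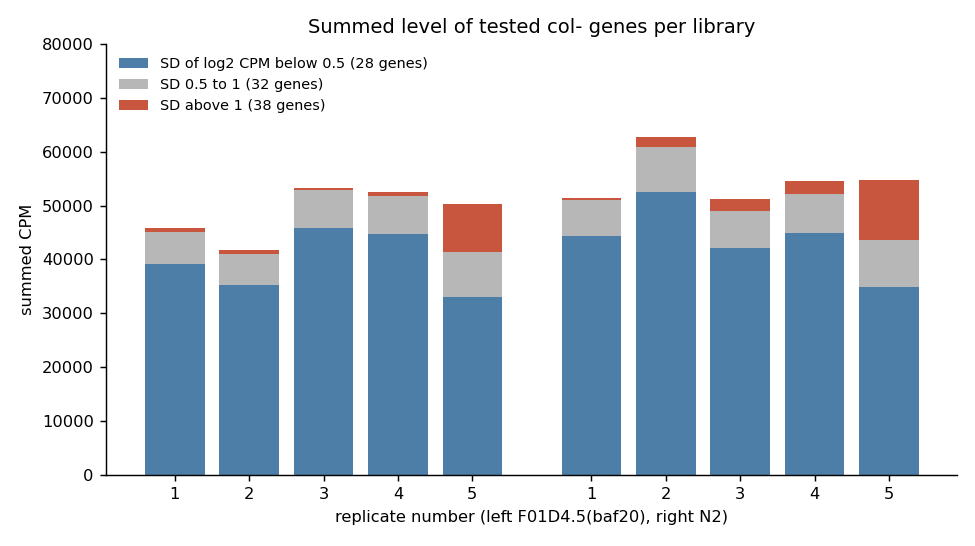
Summed CPM of the 98 tested collagens in each library, with replicate numbers on the x axis and F01D4.5(baf20) left of N2. Bars are split by how much each gene varied over the 10 libraries (SD of log2 CPM), and the most variable 38 genes reached 8779 and 11230 CPM in the libraries numbered 5 of F01D4.5(baf20) and N2.

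The replicate-number comparison asked whether a collagen's level differed among the numbers 1 to 5 beyond the spread left after strain and number were fitted. With edgeR's quasi-likelihood F test, 21 of the 98 tested collagens passed a Benjamini-Hochberg adjusted p of 0.05 (21.4%), against 8.89% of the 12335 genes tested. Of these, 20 had their highest fitted level at number 5, and 8.27% of all genes did so while passing. The exception was col-95, which was lowest at number 5. In all 20 the libraries numbered 5 of both strains were the highest pair of the 10, and the fitted level was lowest at number 1. That low was not shared by the strains. The mean log2 CPM of the 20 was 2.64 in N2 library 1, against 3.97 to 4.31 in N2 libraries 2 to 4. In F01D4.5(baf20) it was 3.08 in library 1 and lowest in library 3, at 2.695. Both libraries numbered 1 were the lowest pair for 0 of the 98 collagens, against 1.43% of all genes. The fitted deviation of the 20 at number 5 from the mean over numbers ran from 0.71 to 3.63 on the log2 scale, with a median of 2.41. The result rests on the libraries numbered 5. Without both of them 0 of 97 collagens passed, with 1 at an unadjusted p under 0.05, and 0 of 12309 genes passed. Without F01D4.5(baf20) library 5, 2 of 99 collagens passed (2.02%, against 0.644% of all genes), and without N2 library 5, 6 of 98 did (6.12%, against 2.65%). The count was 11 without N2 library 2 (11.1%, against 7.09%), 12 without F01D4.5(baf20) library 2 (12%, against 7.16%), 37 without N2 library 1 (36.6%, against 9.87%) and 53 without F01D4.5(baf20) library 1 (53%, against 14%). DESeq2's likelihood ratio test called 60 collagens (61.2%, against 13.2% of all genes).

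**Figure D2:**
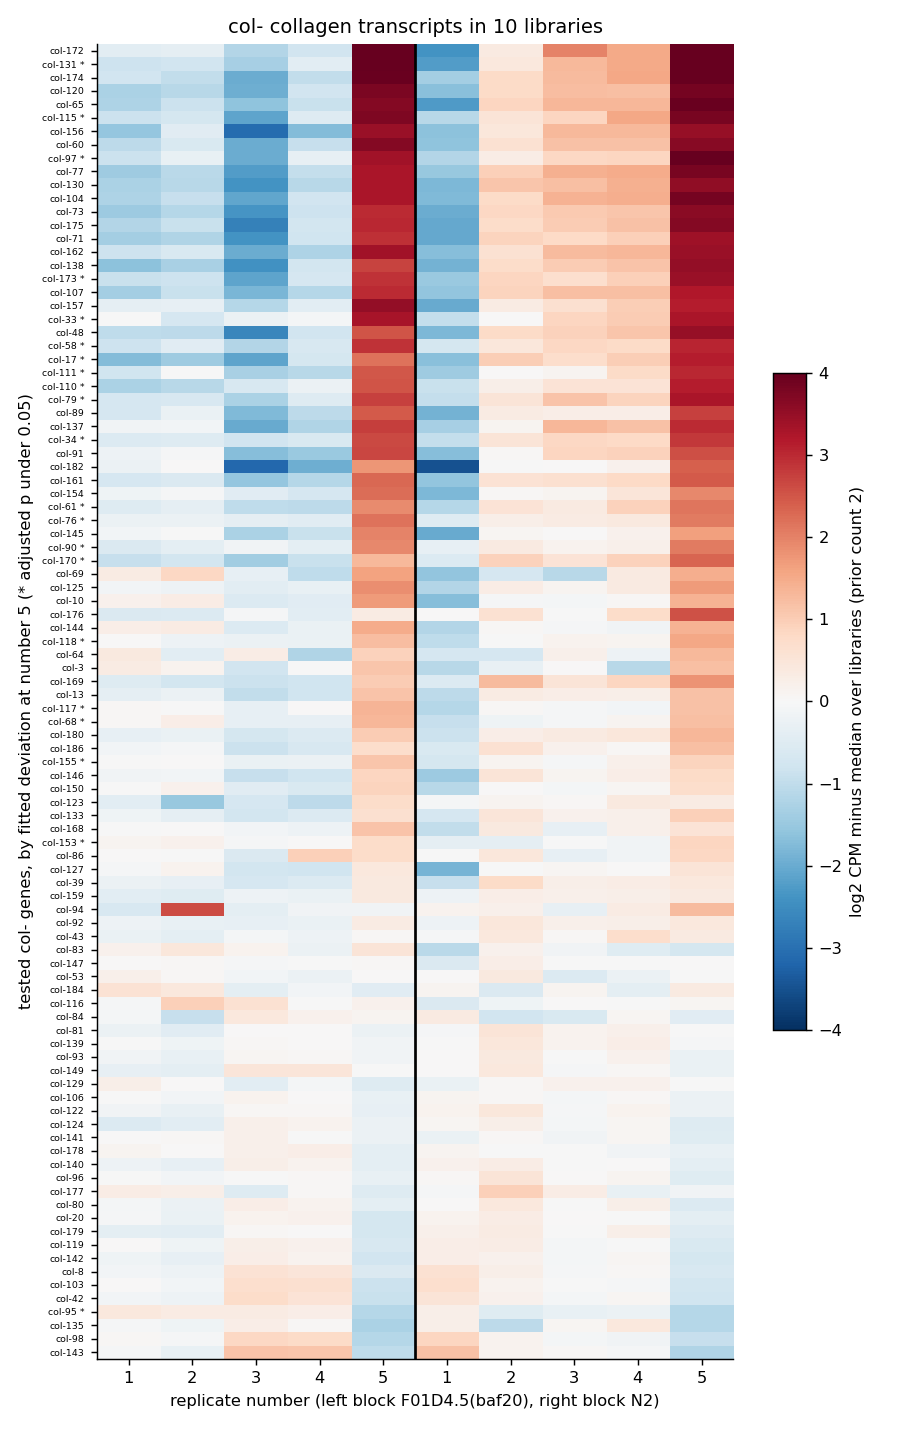
Level of each tested collagen in each library as log2 CPM minus the gene's median over 10 libraries (colour), with genes down the page ordered by their fitted deviation at number 5 and replicate numbers on the x axis. F01D4.5(baf20) is the left block and N2 the right one, asterisks mark the 21 genes past an adjusted p of 0.05, and the upper rows are red in both libraries numbered 5.

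The smallest p-values belonged to col-110 and col-90, which alone among the 10 collagens named for this test passed the threshold in all 10 fits that left out 1 library. The col-110 gene (chromosome IV, 4608201 to 4609668 in WBcel235) had 5.84, 6.51, 9.17, 12.1 and 82.9 CPM in F01D4.5(baf20) libraries 1 to 5, against 7.63, 17.1, 21.2, 21.2 and 127 CPM in N2 libraries 1 to 5. Both libraries numbered 5 were above all others, and the strains overlapped. Its fitted deviation at number 5 was 2.55 (log2), with an adjusted p of 0.000547 by edgeR's quasi-likelihood test. A tested gene, nspg-10, overlaps it on the other strand, and no source used here says whether strand was used in counting. The col-90 gene (chromosome III, 7948838 to 7950068) had 30.7, 35.1, 42.4, 35.7 and 177 CPM in F01D4.5(baf20) libraries 1 to 5, against 36.9, 60.1, 50.6, 53.3 and 195 CPM in N2 libraries 1 to 5. The libraries numbered 5 were again the highest pair, and the other 8 stayed between 30.7 and 60.1 CPM. The deviation of col-90 was 1.72 (log2), also with an edgeR adjusted p of 0.000547.

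Next in order of p-value came col-76, col-33, col-58 and col-97. For col-76 the level was 105 CPM in F01D4.5(baf20) library 5 and 100.4 CPM in N2 library 5, against 16.3 to 30.8 CPM in the other 8 libraries. For col-33 it was 13.8 and 13.7 CPM in the libraries numbered 5 of F01D4.5(baf20) and N2, against 0.545 to 2.73 CPM in the others. These pairs were almost equal between strains and far above the remaining libraries. For col-58 the libraries numbered 5 had 28.4 CPM in F01D4.5(baf20) and 31.5 CPM in N2, against 1.51 to 6.69 CPM elsewhere, and for col-97 they had 36 and 56.7 CPM, against 0.706 to 6.18 CPM elsewhere. The edgeR adjusted p-values of these 4 were 0.00198, 0.0024, 0.00257 and 0.00479. Without F01D4.5(baf20) library 5 they became 0.0819, 0.0906, 0.0751 and 0.142, and without N2 library 5 that of col-97 became 0.0718.

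The highest deviation among the collagens past the threshold was that of col-131, with 3.28, 3.41, 2.22, 4.4 and 111 CPM in F01D4.5(baf20) libraries 1 to 5 and 1.09, 7.96, 14.9, 17.3 and 129 CPM in N2 libraries 1 to 5. The N2 libraries alone spread over 3 tiers, with number 1 lowest, numbers 2 to 4 between, and number 5 highest. Its deviation was 3.63 (log2) and its edgeR adjusted p 0.0404. Also past the threshold and highest at number 5 were col-111, col-170, col-115, col-79, col-173, col-34, col-118, col-17, col-155, col-68, col-153, col-61 and col-117, with edgeR adjusted p-values of 0.00644 to 0.0452. These names are given only to complete the count of 20. Among them col-17 had 5.12, 6.31, 3.83, 10.5 and 78.3 CPM in F01D4.5(baf20) libraries 1 to 5, against 5.36, 34.3, 28.5, 34.7 and 155 CPM in N2 libraries 1 to 5. N2 libraries 2 to 5 exceeded F01D4.5(baf20) libraries 1 to 4, while N2 library 1 lay among them.

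Several collagens with large deviations did not pass. The most variable collagens of all, by the SD of log2 CPM over the 10 libraries, were col-172, col-131, col-156 and col-65. The level of col-172 was 52.3 CPM in F01D4.5(baf20) library 5 and 60.4 CPM in N2 library 5, against 0.272 to 9.61 CPM elsewhere, with a deviation of 3.69 (log2) and an edgeR adjusted p of 0.063. For col-156 the libraries numbered 5 held 56 CPM in F01D4.5(baf20) and 56.3 CPM in N2, with an adjusted p of 0.112, and for col-65 they held 105.5 and 129.5 CPM, with an adjusted p of 0.0616. In these genes N2 libraries 2 to 4 lay well above N2 library 1 and above F01D4.5(baf20) libraries 1 to 4, so the replicates of a number other than 5 differed between strains.

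**Figure D3:**
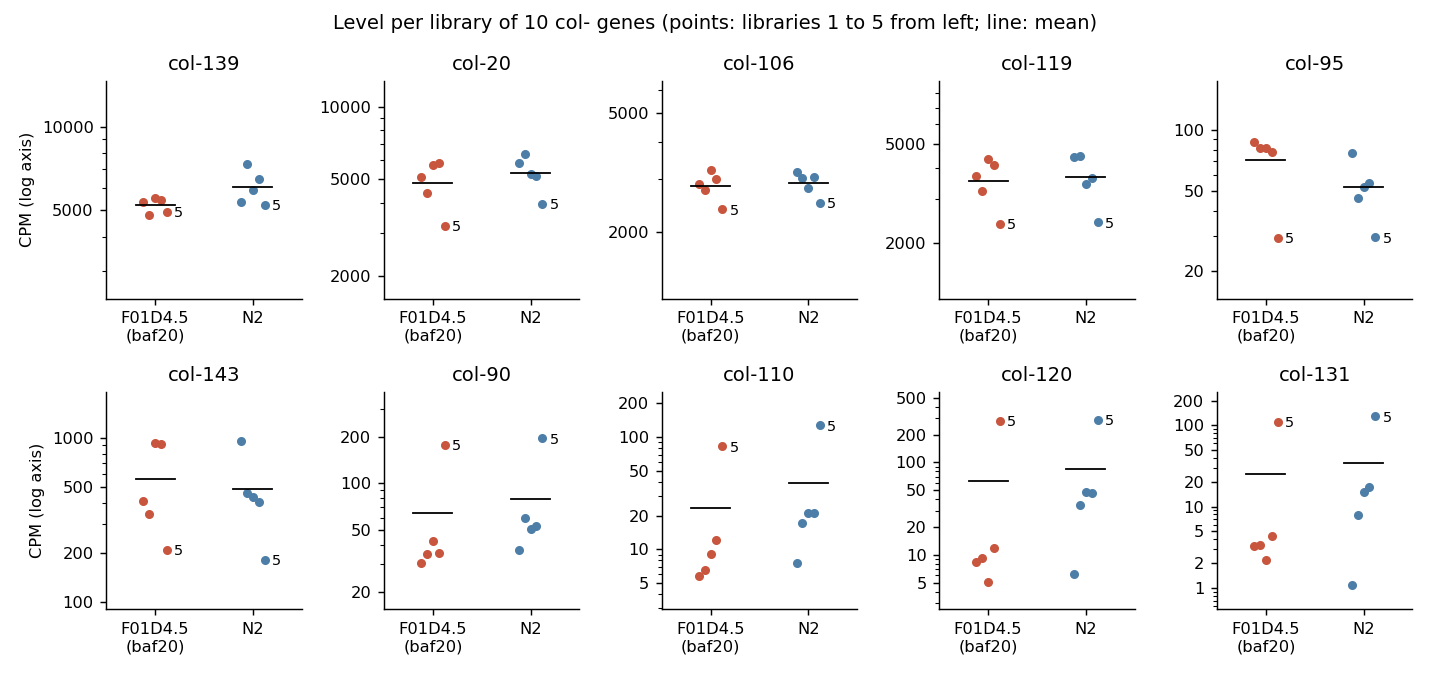
CPM of 10 collagens in each library on log axes, with F01D4.5(baf20) left of N2, points for libraries 1 to 5 from left to right, the library numbered 5 marked, and a line at the mean. In col-110, col-90, col-120 and col-131 both libraries numbered 5 are the highest points, in col-95, col-119, col-20 and col-106 they are the lowest of each strain, and col-139 changes little.

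At an unadjusted p under 0.05 the replicate-number test passed 60 of 98 collagens (61.2%), against 24.5% of all genes. Whatever their p-value, 65 collagens (66.3%) were fitted highest at number 5, against 37.5% of all genes tested, 23 (23.5%) were fitted lowest there, against 40%, and 10 were neither. Both libraries numbered 5 were the highest pair for 59 collagens (60.2%), against 23.2% of all genes, and the lowest pair for 16 (16.3%), against 19.2%. For no other number were both libraries the highest pair of any of the 98, and the corresponding shares of all genes were 1.03%, 2.46%, 0.543% and 0.357% at numbers 1 to 4.

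The collagen that fell at number 5 was col-95 (chromosome III, 11703994 to 11705091 in WBcel235). Its level was 87.5, 81.4, 81.1, 78.2 and 29.3 CPM in F01D4.5(baf20) libraries 1 to 5, against 77.4, 46.3, 52.4, 54.7 and 29.5 CPM in N2 libraries 1 to 5. The libraries numbered 5 were the lowest of the 10, and N2 library 1 lay close to F01D4.5(baf20) libraries 1 to 4. Its deviation was -0.96 (log2), with an edgeR adjusted p of 0.0157, which became 0.236 without F01D4.5(baf20) library 5 and 0.0546 without N2 library 5. Of all genes, 0.567% passed and were lowest at number 5, and the collagens' share was 1.02%.

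The next smallest p-values among collagens fitted lowest at number 5 were those of col-135, col-142 and col-119, none past the threshold by edgeR. For col-135, which is counted in 2 rows, levels were 19.5, 17.9, 23.9, 20.7 and 8.14 CPM in F01D4.5(baf20) libraries 1 to 5, against 23.7, 9.61, 20.9, 27.2 and 8.93 CPM in N2 libraries 1 to 5, with an edgeR adjusted p of 0.0554. N2 library 2 was almost as low as the libraries numbered 5. Its call depended on the setting: it passed under 8 of 18 alternatives, with adjusted p-values of 0.00118 by DESeq2 and 0.00271 without a filter, and of 0.00118 to 0.384 over all of them. For col-142 the libraries numbered 5 held 550 CPM in F01D4.5(baf20) and 575 CPM in N2, against 744 to 1140 CPM in the other 8, with an adjusted p of 0.104. For col-119 they held 2380 and 2420 CPM, against 3233 to 4475 CPM, with an adjusted p of 0.14. Both were the lowest pair of the 10, at deviations of -0.64 and -0.57 (log2).

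By level, the most abundant collagens stood apart from the rest in their direction at number 5, given here as a description over genes of the same libraries. Among 15 collagens with a mean of 1000 CPM or more, 10 were fitted lowest at number 5 (66.7%, against 32.2% of all genes of that level), 3 highest (20%, against 52.9%) and 0 passed the test. Below that level most were fitted highest, with no order among the classes. The counts were 19 of 27 at 100 to 1000 CPM (70.4%, against 31.1%), 31 of 37 at 10 to 100 CPM (83.8%, against 36.9%) and 12 of 19 under 10 CPM (63.2%, against 40.4%). Those past the threshold numbered 3, 13 and 5 in these classes. The share of all genes passing was not computed by level, so these counts do not set collagens apart from other genes of their level. Abundant collagens were also the steadier ones, with a median SD of log2 CPM of 0.268 at 1000 CPM or more, against 0.216 over all 121 genes of that level. At 10 to 100 CPM the collagens' median SD was 0.996, against 0.265 over 5140 genes.

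**Figure D4:**
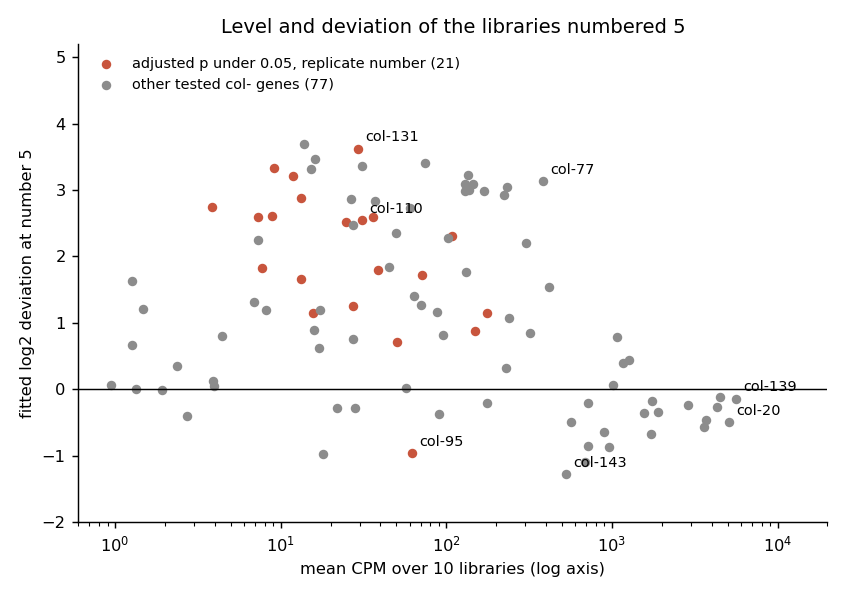
Fitted log2 deviation at number 5 (y axis) against mean CPM over 10 libraries (x axis, log scale) for the 98 tested collagens, with the 21 past an adjusted p of 0.05 in red. Deviations run from -1.28 to 3.69, and most collagens of 1000 CPM or more lie at or below 0.

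Sorting the collagens by how much they varied gave 3 classes. In 38 collagens the SD of log2 CPM over the 10 libraries exceeded 1 (38.8%, against 4.34% of all genes), and in all 38 both libraries numbered 5 were the highest pair. The class was picked by spread over these same libraries, so the place of the libraries numbered 5 in it is no separate result. The share with that pair highest was not computed for all genes with an SD above 1. The summed CPM of this class was 647, 736, 345, 629 and 8779 in F01D4.5(baf20) libraries 1 to 5, against 366, 1839, 2263, 2431 and 11230 in N2 libraries 1 to 5. Beyond number 5, N2 libraries 2 to 4 were above F01D4.5(baf20) libraries 1 to 4, and N2 library 1 was below 3 of them. A further 32 collagens had an SD of 0.5 to 1, and 7 of them passed the replicate-number test. The share of all genes passing was not computed by class of SD.

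The remaining 28 collagens had an SD below 0.5 (28.6%, against 75.9% of all genes), with a median mean level of 805 CPM, and 1 of them passed the replicate-number test. They are the flattest of the family in these libraries. The smallest SD among collagens of at least 10 CPM was that of col-106, at 2885, 2758, 3216, 3007 and 2375 CPM in F01D4.5(baf20) libraries 1 to 5, against 3180, 3042, 2795, 3054 and 2502 CPM in N2 libraries 1 to 5. The libraries numbered 5 were the lowest pair even here, and the strains overlapped. Next came col-139, then col-141, at 25.2 to 33.8 CPM in F01D4.5(baf20) libraries and 21.1 to 31.1 CPM in N2 libraries, and col-93, at 1412 to 1843 CPM in F01D4.5(baf20) libraries and 1463 to 2301 CPM in N2 libraries. A tested gene, dhc-4, overlaps col-93 on the other strand.

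Among collagens often studied for other reasons, col-10, col-13 and col-120 have been linked to lifespan in worms that overexpress them, and col-13 encodes a protein nearly identical to that of col-12. The level of col-120 was 8.39, 9.22, 5.14, 11.8 and 281 CPM in F01D4.5(baf20) libraries 1 to 5, against 6.17, 34.8, 47.9, 47.2 and 291 CPM in N2 libraries 1 to 5. Its libraries numbered 5 stood far above the rest in both strains, yet its adjusted p was 0.0696 by edgeR. In col-10 the libraries numbered 5 held 162 CPM in F01D4.5(baf20) and 130 CPM in N2, against 15.3 to 61.6 CPM elsewhere, and N2 library 1 was the lowest. In col-13 they held 174 and 177 CPM, against 38 to 97 CPM, and in col-144 they held 154 and 143.3 CPM, against 24.1 to 69.4 CPM. None of these 3 passed, with adjusted p-values of 0.168, 0.15 and 0.0944.

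The strain comparison asked which collagens differed between F01D4.5(baf20) and N2, the contrast the study was designed around. No collagen passed. By edgeR's quasi-likelihood test, 0 of 98 had an adjusted p under 0.05, against 0.0649% of all genes tested, which is 8 of 12335. In each direction 0 collagens passed, against 0.0324% of all genes higher and 0.0324% lower. At an unadjusted p under 0.05, 1 collagen was higher and 5 were lower in F01D4.5(baf20) by edgeR, together 6.12% of the collagens against 5.75% of all genes. For lower alone the share was 5.1% of the collagens against 2.23% of all genes. That count of 5 lower depended on single libraries. It was 48 of 99 without F01D4.5(baf20) library 5 (48.5%, against 9.62% of all genes) and 9 of 101 without N2 library 1 (8.91%, against 2.74%). It was 1 of 100 without N2 library 4 (1%, against 1.6%) and 2 of 99 without N2 library 2 (2.02%, against 1.68%). Without F01D4.5(baf20) library 1 it was 2 of 100 (2%, against 1.85%), and without F01D4.5(baf20) library 2 it was 3 of 100 (3%, against 1.82%). DESeq2 also called 0. At its unadjusted p under 0.05, 0 were higher (0%, against 3.28% of all genes) and 6 lower (6.12%, against 2.43%). The collagens' adjusted p-values by edgeR ran from 0.784 to 1.0. For 0 collagens did the strains' libraries fail to overlap in either direction, against 0.794% of all genes for higher and 0.64% for lower. Strains cannot separate where both libraries numbered 5 are the highest or the lowest pair of the 10. That was the case for 59 and 16 of 98 collagens (60.2% and 16.3%), against 23.2% and 19.2% of all genes. For these collagens the overlap was thus fixed in advance.

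Although none passed, the fitted log2 fold changes of F01D4.5(baf20) over N2 were negative for 68 collagens (69.4%), against 46.8% of all genes, and their median was -0.26, against 0.02. Single libraries moved this median. It was -0.59 without F01D4.5(baf20) library 5, 0.24 without N2 library 5, -0.39 without N2 library 1 and -0.46 without both libraries numbered 5. In the last of these fits 0 collagens were called by edgeR, while 2 higher (2.06%, against 7.3% of all genes) and 39 lower (40.2%, against 8.13%) had an unadjusted p under 0.05. The most variable 38 collagens had a median of -0.61 with 34 negative, and the flattest 28 had a median of -0.12 with 18 negative. The SD that sorts these classes includes the strain difference, so the sizes of these medians are no separate result. The share of negative fold changes was not computed for all genes by class of SD.

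Differences between same-numbered libraries of the 2 strains, on the log2 CPM scale, varied with the number. Nothing says that same-numbered libraries belong together, so these differences are a description and not a comparison of pairs. The collagens' median of F01D4.5(baf20) minus N2 was 0.44, -0.62, -0.57, -0.76 and -0.11 at numbers 1 to 5, while the median over all tested genes stayed between -0.02 and 0.04. At number 1, 66 collagens were higher and 32 lower in F01D4.5(baf20). At numbers 2 to 5, 80, 71, 77 and 65 were lower. At all 5 numbers 9 collagens were lower and 1 was higher in F01D4.5(baf20), and 42 were higher at a single number. The shares of all genes for these counts were not computed. N2 library 1 held the lowest value of 34 collagens (34.7%, against 10.5% of all genes). F01D4.5(baf20) library 3 held that of 27 (27.6%, against 10.4%). The highest value was in N2 library 5 for 43 collagens (43.9%, against 19.9% of all genes). It was in F01D4.5(baf20) library 5 for 20 (20.4%, against 14.4%) and in N2 library 2 for 16 (16.3%, against 9.94%).

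**Figure D5:**
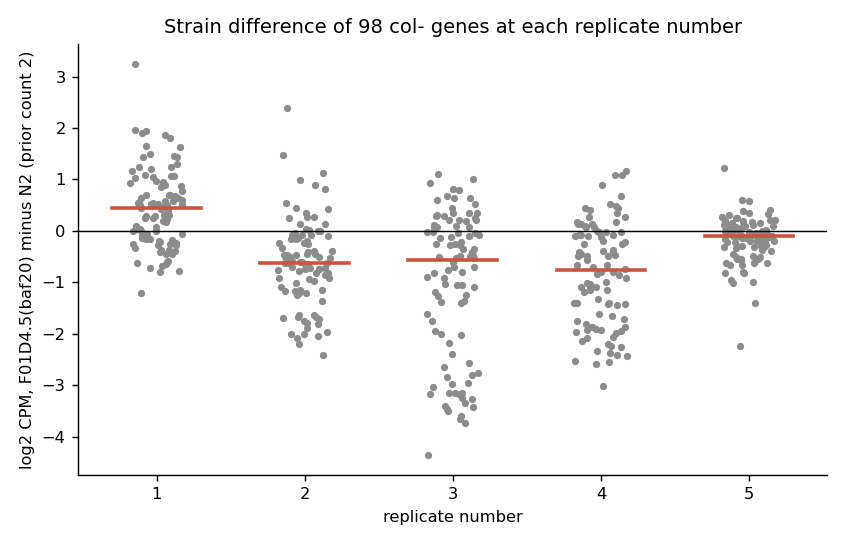
Difference in log2 CPM between F01D4.5(baf20) and N2 (y axis, F01D4.5(baf20) minus N2) at each replicate number (x axis), with 1 point per tested collagen and a line at the median. Medians are 0.44 at number 1, between -0.76 and -0.57 at numbers 2 to 4, and -0.11 at number 5.

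The 4 collagens with negative fold changes and the smallest strain p-values were col-43, col-176, col-81 and col-92. For col-43 levels were 2.97, 2.71, 3.43, 3.14 and 3.73 CPM in F01D4.5(baf20) libraries 1 to 5, against 3.54, 4.96, 3.78, 6.09 and 4.67 CPM in N2 libraries 1 to 5, with a log2 fold change of -0.53 ± 0.19 (SE) and an edgeR adjusted p of 0.784. The lowest N2 library lay below the highest F01D4.5(baf20) library. For col-176 levels were 2.87, 2.91, 4.23, 3.23 and 5.54 CPM in F01D4.5(baf20) libraries 1 to 5, against 4.45, 6.72, 4.32, 7.45 and 26.8 CPM in N2 libraries 1 to 5. Its log2 fold change of -1.40 ± 0.51 (SE), with an edgeR adjusted p of 0.786, became -0.61 without N2 library 5.

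The abundant col-81 had 3819, 3283, 4487, 4498 and 3814 CPM in F01D4.5(baf20) libraries 1 to 5, against 4333, 6439, 4862, 5153 and 4429 CPM in N2 libraries 1 to 5. N2 libraries 1 and 5 lay just inside the F01D4.5(baf20) range. Its log2 fold change was -0.34 ± 0.13 (SE), with an edgeR adjusted p of 0.799. For col-92 the levels were 174 to 270 CPM in F01D4.5(baf20) libraries, with number 5 the highest, and 191 to 299 CPM in N2 libraries, at -0.37 ± 0.16 (log2, SE) and an adjusted p of 0.836. It too is overlapped on the other strand by dhc-4.

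The 4 with positive fold changes and the smallest strain p-values were col-83, col-116, col-95 and col-141. The faint col-83 had 1.13, 1.4, 1.11, 0.808 and 1.47 CPM in F01D4.5(baf20) libraries 1 to 5, against 0.363, 1.14, 0.864, 0.636 and 0.519 CPM in N2 libraries 1 to 5. N2 libraries 2 and 3 reached into the F01D4.5(baf20) range, and several values were within a few counts of the floor. Its log2 fold change was 0.74 ± 0.32 (SE), the largest positive one in the family, with an edgeR adjusted p of 0.845. The log2 fold changes of col-116, col-95 and col-141 were 0.58, 0.46 and 0.15, with adjusted p-values of 0.871, 0.903 and 0.926.

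The 153 collagens lie on all 6 chromosomes, with 18 on I, 23 on II, 12 on III, 42 on IV, 31 on V and 27 on X. Many sit side by side. Within 10000 bp of each other on WBcel235, 28 neighbouring pairs were found, which involve 48 collagens, and both genes were tested in 18. In 12 of these 18 the deviations at number 5 had the same sign, and in 0 pairs did both genes have an SD above 1, against 11 pairs with neither and 7 with 1. No rate was computed for collagens that are not neighbours, and 65 tested collagens were fitted highest at number 5. The counts therefore describe these pairs only.

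Neighbours could differ widely in how they moved with replicate number. The clusters named here were chosen after their values were seen. On chromosome II, col-17, col-20 and col-73 follow each other on the minus strand between 4866436 and 4873129, with deviations at number 5 of 2.60, -0.49 and 3.04 (log2). The middle gene, col-20, had 5095, 4396, 5721, 5850 and 3220 CPM in F01D4.5(baf20) libraries 1 to 5, against 5829, 6369, 5275, 5188 and 3958 CPM in N2 libraries 1 to 5. It was lowest in the libraries numbered 5, where its neighbours were highest. On chromosome V, col-144, col-145 and col-10, on the minus strand between 9159586 and 9165307, deviated alike, by 1.26, 1.77 and 1.41. In a further cluster on chromosome V, col-141, col-142 and col-143, on the plus strand between 6829704 and 6836704, deviated by -0.28, -0.64 and -1.28. The level of col-143 was 410, 346, 930, 912 and 210 CPM in F01D4.5(baf20) libraries 1 to 5, against 953, 463, 434, 408 and 181 CPM in N2 libraries 1 to 5. F01D4.5(baf20) libraries 3 and 4 and N2 library 1 formed its high end, and its edgeR adjusted p for replicate number was 0.378. Tested genes overlap col-142 and col-143 on the other strand.

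Lists of other cuticle and tissue genes gave 0 strain calls by edgeR's adjusted p, in every list. For the replicate number, all 5 tested furrow collagens, which form the cuticle's circumferential furrows, passed and were highest at number 5, led by dpy-3, dpy-8 and dpy-7 with deviations of 2.58, 2.14 and 2.56 (log2). Of 11 tested body shape collagens, 7 passed, all highest at number 5, among them bli-1, a component of adult cuticle struts, at 2.15. Of the 6 numbered collagens left out above, 0 passed, with 4 fitted highest at number 5. The deviations of col-38, col-49 and col-63 were 2.93, 2.95 and 3.04 (log2), with edgeR adjusted p-values of 0.0701, 0.12 and 0.0861. Those of col-62, col-7 and col-19 were 0.39, 0.29 and -0.36, with adjusted p-values of 0.614, 0.691 and 0.271. The 2 tested basement membrane collagens, emb-9 and cle-1, did not pass and were fitted lowest at number 5. The lists' median strain log2 fold changes were -1.33, -1.37, -0.65 and 0.18 in that order.

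Among collagen processing enzymes, 1 of 9 tested passed. It was dpy-18, a catalytic subunit of the prolyl 4-hydroxylase that modifies collagen chains, with 26.4, 26.3, 39.1, 41.8 and 116 CPM in F01D4.5(baf20) libraries 1 to 5, against 49.8, 63.4, 61.4, 64.9 and 142 CPM in N2 libraries 1 to 5. Its deviation was 1.24 (log2) with an edgeR adjusted p of 0.00294. Moulting genes passed in 4 of 7 cases, all highest at number 5, with noah-2, an apical matrix protein, at 1.77 and mlt-10 at 1.80. Whatever their p-value, 5 of the 7 were fitted highest at number 5 and 1, nas-37, lowest, at -0.22. Regulators of the epidermis and cuticle passed in 3 of 7 cases, all highest at number 5, led by bed-3, a zinc finger factor, at 2.44 and myrf-1, a transcription factor, at 0.94. Of these 7, 5 were fitted highest at number 5 and 1, nhr-23, lowest, at -0.26. Over all genes tested, 8.89% passed. Of 2 cuticlins 1 passed, and of 5 epidermal genes that encode no collagen 1 passed, both highest at number 5. Several list genes could not be tested because their rows, split by transcript, hold almost no counts.

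In F01D4.5(baf20) library 5 and N2 library 5, the 7 tested moulting genes had a mean log2 CPM of 5.33 and 5.91, against 3.52 to 4.05 in the other F01D4.5(baf20) libraries and 3.66 to 4.66 in the other N2 libraries. The 5 tested germline and oocyte genes had a mean of 6.71 in F01D4.5(baf20) library 5 and 6.64 in N2 library 5, against 7.49 to 7.75 in the other F01D4.5(baf20) libraries and 7.38 to 7.74 in the other N2 libraries. All 5 were fitted lowest at number 5, and 1 passed, puf-5, an RNA-binding protein of oocytes, at -0.85 (log2, edgeR adjusted p 0.0182), while rme-2 was listed at 0 over 4 rows. Of 3 intestinal genes 2 passed, ges-1 and elt-2, both highest at number 5. For ges-1, a gut esterase, the level was 168 CPM in F01D4.5(baf20) library 5 and 176 CPM in N2 library 5, against 35.8 to 71.7 CPM elsewhere. Of 3 muscle, 6 sperm, 5 yolk protein and 3 neuronal genes tested, 0 passed by edgeR. The part of these differences in the collagens' levels was not tested.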

How the data were processed

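Per the submitters' processing notes, the tools were CASAVA, HISAT2, HTSeq and DESeq2 and the builds ce10 and ce11, with no versions stated. The authors deposited 1 htseq-count table per sample, with raw whole-number counts per transcript or gene row. Of 57827 rows, 57515 (99.78% of counts) were matched to genes of Ensembl release 115 and RefSeq on WBcel235 and summed per gene. Coordinates are from that annotation. Genes were kept by filterByExpr (minimum count 10, minimum total 15), scaled by the trimmed mean of M values and tested over all 12335 genes with edgeR 4.0.16 (robust quasi-likelihood, Benjamini-Hochberg, two-sided for strain, threshold 0.05) in R 4.3.3. The strain fit had strain alone; the replicate-number test was an F test of the number terms beside strain. Log2 CPM used a prior count of 2, which shrinks differences of faint genes. DESeq2 1.42.0, other scalings and filters, unsummed rows and left-out libraries were alternatives. Both tests were also run on simulated counts with known changes. The simulation for strain held no differences between replicate numbers, so it does not cover the spread in the strain fit of these data.

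The members, lists and tests were chosen with earlier results of these data known. Collagens were named by rank: the smallest strain and replicate-number p-values, the highest level per length, the smallest and largest SD, and a list of often studied genes. A rule based on protein identity was not applied. The labels call the samples biological replicates without saying what was shared, so p-values set a difference against the spread between these samples only. In the strain fit that spread includes differences between replicate numbers. The common biological coefficient of variation, edgeR's measure of spread between replicates, was 0.325 with strain alone and 0.206 with number added. F01D4.5(baf20) libraries 1 and 2 were the most alike, differing by more than counting noise (chi-square of 2.21 per degree of freedom over genes), and were kept as 2 samples. The SE of a strain log2 fold change comes from the edgeR quasi-likelihood fit and includes the spread between libraries. Floors cover counting error only. Of the tested collagens, 24 overlap a tested gene on the other strand.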

Additional observations from a re-analysis of the deposited data

Results flagged for a closer look

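In each strain the 5 libraries of the 31 named collagens were checked for a library far from the other 4, measured as its gap to the nearest library divided by the range of log2 CPM, with a critical value of 0.71. Of 62 groups of 5, 12 had such a library. Chance flags about 1 in 20 groups, but most of these collagens were named for their replicate-number p or their SD over the same libraries, so the count cannot be read against that rate. Over all 98 tested collagens, 38.8% had such a library in F01D4.5(baf20), against 12.8% of all genes, and 3.06% in N2, against 8.42%. In all 12 named cases it was F01D4.5(baf20) library 5, and in 0 it was an N2 library.

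In 10 of the 12 the library was the highest of its strain. The gap was 0.832 of the range for col-33 (13.8 CPM), 0.825 for col-58 (28.4 CPM), 0.856 for col-65 (105.5 CPM), 0.906 for col-76 (105 CPM) and 0.816 for col-90 (177 CPM). It was 0.795 for col-92 (270 CPM), 0.728 for col-110 (82.9 CPM), 0.796 for col-120 (281 CPM), 0.832 for col-131 (111 CPM) and 0.86 for col-172 (52.3 CPM). In the other two the library was the lowest, with 0.896 for col-95 (29.3 CPM) and 0.732 for col-135 (8.14 CPM). N2 library 5 was on the same side of its strain in each of these genes except col-92, where N2 library 2 was higher.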

How the results depend on the processing

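For strain, 0 collagens were called higher and 0 lower in all 10 fits that left out 1 library (0 to 0 in each direction) and under every other planned setting, with the median log2 fold change between -0.59 and 0.24. Leaving out both libraries numbered 5 and N2 replicate 1, a choice made after seeing the data from how these libraries behaved, gave 1 collagen higher and 40 lower of 99 and 613 of 12557 genes; it supports nothing. Genes called for strain numbered 33 by DESeq2, 5 unfiltered and 2 to 13 with 1 library left out, against 8. With replicate number as a block, 0 collagens were called higher and 0 lower, at a median of -0.33, and 20 were lower at an unadjusted p under 0.05 (20.4%, against 6.44% of all genes). Deviations of log2 CPM from the strain mean, over all tested genes, were correlated between libraries of the 2 strains. Same-numbered libraries gave 0.153, 0.145, 0.0021, -0.131 and 0.822 at numbers 1 to 5. Libraries of unlike number gave -0.732 (F01D4.5(baf20) library 5 with N2 library 1) to 0.668 (F01D4.5(baf20) library 3 with N2 library 1). The numbers were therefore not taken as pairs.

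For replicate number, the 21 collagens (20 highest and 1 lowest at number 5) became 60 (55 and 5) by DESeq2, 12 (12 and 0) without the strain term, and 0 without both libraries numbered 5. Called collagens made up 61.2% by DESeq2, against 13.2% of all genes, and 12.2% without the strain term, against 5.63%. Those lowest at number 5 became 2 with DESeq2 size factors, 2 with upper-quartile factors and 2 with rows as deposited, each of 98. Without a filter they became 4 of 150. The shares of all genes called highest or lowest at number 5 were not computed under alternative settings. Leaving out 1 library gave 2 to 53 called, 2 to 51 highest and 0 to 2 lowest. Genes called went from 81 to 1766, against 1096. The causes were not tested. Depth limits collagens of a few CPM, and 55 could not be tested.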
